A study of Mus musculus with 2 samples.

Results

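The Eph, ephrin, semaphorin and plexin genes were the 51 genes of 31053 in the feature lists whose symbols begin with Epha, Ephb, Efna or Efnb followed by a number, with Sema3 to Sema7 followed by a letter from a to g, or with Plxna to Plxnd followed by a number. They comprised 9 EphA and 5 EphB receptors, 5 ephrin-A and 3 ephrin-B ligands, 7 secreted class 3 semaphorins, 13 membrane-bound semaphorins, 4 plexin-A genes and 5 genes of the plexin-B, plexin-C and plexin-D groups. They were measured by single-cell RNA sequencing in mouse embryonic stem cells of the MM13 line, differentiated to day 9 with retinoic acid (RA) alone or with RA and the growth factor BMP4, in cultures meant to give the sensory interneurons of the dorsal spinal cord. Retinoic acid was common to both conditions, both came from 1 cell line, and each condition had 1 library, so no test between conditions and no error between replicates could be computed. Every interval below is a 95% interval for counting error only, and differences between cultures, captures or sequencing are not covered by it.

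Eph receptors are receptor tyrosine kinases that read ephrins on neighbouring cells, and they steer axons and keep cell groups apart at boundaries. EphA receptors mainly bind the ephrin-A ligands, which are held in the membrane by a lipid anchor, and EphB receptors mainly bind the transmembrane ephrin-B ligands, while EphA4 binds both. Plexins are the receptors of the semaphorins, and most class 3 semaphorins reach plexin-A receptors through the co-receptors neuropilin-1 and neuropilin-2. In the dorsal spinal cord these molecules are known for guiding commissural axons and for separating axons by target layer.

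The RA library held 9704 barcodes and the RA+BMP4 library 13121. Filters on genes detected, mitochondrial UMIs and doublets left 5900 cells (60.8%) at a median depth of 14196 UMIs and 8352 cells (63.7%) at 10465. The libraries shared 43 barcodes, 21 of them among kept cells. Levels are given in CPM, each gene's UMIs scaled to the total UMIs of the same kept cells. Reads came from transcript 3' ends and CPM was not scaled to a length, so a level is compared between cell classes and libraries for 1 gene and not between genes. In the libraries as a whole, fewer cells of a type and less RNA per cell cannot be told apart.

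Cells fell into 23 clusters, formed without any of the 51 genes and named from marker lists. The RA and RA+BMP4 libraries differed in makeup. The dI1-like class, which pooled Atoh1-lineage neurons with cells resembling their precursors, held 174 and 1762 cells. The dI2-like neurons numbered 118 and 600, and roof plate-like cells, which resemble the dorsal midline, 1007 and 2808. In the other direction, dI4/dILA-like neurons numbered 681 and 291, dI5/dILB-like neurons 1005 and 187, and pluripotent-like cells 323 and 169. The pluripotent-like cells were deep, with medians of 54182 and 39195 UMIs, and they carried 16.8% of the UMIs in RA and 6.68% in RA+BMP4. All 11 roof plate markers, all 6 dI1 markers and all 10 pluripotency markers were higher inside their class than outside it in both libraries. Of 15 dorsal progenitor markers 11 were higher in both, 1 in RA only and 3 in RA+BMP4 only. Of 8 neural crest markers 6 were higher in both libraries and 2 in neither, though RA held only 1 neural crest-like cell. The same markers had named the classes, so these counts are no separate support for the names. Cluster 18, led by muscle genes, and cluster 20 were shallow, with medians between 2352 and 4231 UMIs, and stayed unnamed, as did cluster 11. Cluster 22 (26 and 31 cells) was too small for class values.

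The promoters of 4 genes on which the comparisons below turn are shown first. They are Epha2, the 1 gene called lower between the libraries, and Epha5, Ephb1 and Sema5a, whose levels separated the dI1-like clusters. Each run covers 250 bases before and 50 bases after the start of the RefSeq transcript, 5' to 3' on the strand of the gene, from the GRCm38.p6 assembly. Epha2 is at chr4:141300971-141301270 on the plus strand, Epha5 at chr5:84417333-84417632 on the minus strand, Ephb1 at chr9:102354644-102354943 on the minus strand and Sema5a at chr15:32244563-32244862 on the plus strand. Capitals mark matches on either strand to 3 promoter elements. The GC box was searched as GGGCGG and, for the other strand, as CCGCCC. The box named for its letters was searched as CCAAT and, for the other strand, as ATTGG. The cyclic AMP response element, which reads alike on both strands, was searched as TGACGTCA.
Epha2: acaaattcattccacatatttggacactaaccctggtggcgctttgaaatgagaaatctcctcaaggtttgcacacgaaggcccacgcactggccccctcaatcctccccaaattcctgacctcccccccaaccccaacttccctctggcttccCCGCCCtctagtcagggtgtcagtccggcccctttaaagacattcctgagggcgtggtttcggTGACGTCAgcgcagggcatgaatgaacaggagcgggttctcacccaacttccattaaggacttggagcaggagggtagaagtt
Epha5: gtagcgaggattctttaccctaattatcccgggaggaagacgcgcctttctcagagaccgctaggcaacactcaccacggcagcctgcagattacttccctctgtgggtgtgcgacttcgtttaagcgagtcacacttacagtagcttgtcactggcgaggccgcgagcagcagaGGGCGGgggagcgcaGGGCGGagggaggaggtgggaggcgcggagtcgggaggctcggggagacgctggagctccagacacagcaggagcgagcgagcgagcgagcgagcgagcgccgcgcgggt
Ephb1: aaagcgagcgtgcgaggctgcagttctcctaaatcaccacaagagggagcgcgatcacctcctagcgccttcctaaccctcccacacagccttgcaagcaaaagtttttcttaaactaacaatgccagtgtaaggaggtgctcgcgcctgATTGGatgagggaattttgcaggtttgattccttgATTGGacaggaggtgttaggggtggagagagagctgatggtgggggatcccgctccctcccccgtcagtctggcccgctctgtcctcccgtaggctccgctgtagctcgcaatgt
Sema5a: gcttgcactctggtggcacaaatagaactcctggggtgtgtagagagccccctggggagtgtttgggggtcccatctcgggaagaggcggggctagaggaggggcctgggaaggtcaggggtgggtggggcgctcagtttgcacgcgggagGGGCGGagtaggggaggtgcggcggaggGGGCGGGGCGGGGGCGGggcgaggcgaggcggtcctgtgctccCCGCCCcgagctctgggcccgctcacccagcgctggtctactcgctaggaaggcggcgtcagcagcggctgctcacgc

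Epha2 held 1 GC box and 1 cyclic AMP response element, Epha5 held 2 GC boxes, Ephb1 held 2 CCAAT boxes and Sema5a held 5 GC boxes, of which the first pair in the long capital run share 1 base. No base belonged to 2 of these elements. Over 32851 promoters of the same length, 35.7% held the GC box, 37.4% the CCAAT box and 1.79% the cyclic AMP response element. The motifs searched first were an E-box of the kind Atoh1 binds (CAGCTG), a SMAD element (GGCGCC) and a homeodomain site of the Msx kind (TAATTG or CAATTA). These stood in 16.3%, 11.9% and 8% of promoters and in none of these 4 windows, and the other elements were added after that was seen. Of the 51 genes, 45 had a promoter in the table, with 59 windows in all, and 44 of the 59 held a GC box (74.6%), 13 the SMAD element (22%), 9 the E-box (15.3%) and 3 the Msx site (5.08%). A match describes the letters and shows no binding.

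Between the whole libraries most of the 51 genes were close to even. Ephrin-B3 (Efnb3), a transmembrane ligand of EphB receptors and EphA4, was higher with BMP4, and the receptor Epha2 was lower. Of the 51 genes, 37 reached 5 CPM in at least 1 library. At a ratio of at least 2, 1 of the 37 was higher in RA+BMP4 against 1.5% of the 11030 genes tested, and 1 was lower against 1.41%. Of the 37, 25 were above a ratio of 1 and 12 below it, beside 6912 above and 4118 below over all genes tested. Their median log2 ratio was 0.10 beside 0.07 over all genes tested.

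Efnb3 stood at 41.6 CPM in RA and 84.5 in RA+BMP4, a ratio of 2.03 [1.96 to 2.11]. Epha2 stood at 13.5 and 4.6 CPM, a ratio of 0.34 [0.306 to 0.378]. Sema5a, a transmembrane semaphorin with thrombospondin repeats, lay just under the threshold at 22.8 and 43.8 CPM, a ratio of 1.92 [1.83 to 2.01]. The next was Plxnc1, the receptor of semaphorin 7A, at 11.1 and 18.4 CPM, and then Sema3f, a class 3 ligand that binds neuropilin-2, at 4.59 and 7.05. On the lower side Epha2 was followed by Sema3d at 13 and 9.39 CPM, Plxna2 at 101.8 and 76.3, Efna5 at 35.5 and 27, Sema4b at 14.5 and 11.2 and Ephb2 at 52.9 and 41.6. Sema3d is a secreted semaphorin, Plxna2 a receptor for class 3 and class 6 semaphorins, Efna5 a lipid-anchored ligand and Ephb2 an ephrin-B receptor.

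Of the remaining receptors, Epha3 stood at 36.4 and 49.5 CPM, Epha4 at 77.7 and 83.3 and Epha7 at 35 and 40.9. Ephb1 was even at 11.7 and 11.3 CPM, as was Ephb3 at 6.3 and 6.3, while Ephb4, a receptor of vessels and mesenchyme that binds ephrin-B2, stood at 5.95 and 8.01. Epha10 lay just under the limit, at 4.93 and 3.13 CPM, and reached 20.5 CPM in dI4/dILA-like neurons of RA. None of these receptors reached a ratio of 2 in either direction.

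The remaining ligands were close to even too. The ephrin-A genes Efna2, Efna3 and Efna4 stood at 28 and 28.8, 18.9 and 22.7, and 16.9 and 22.7 CPM, and the ephrin-B genes Efnb1 and Efnb2 at 51.9 and 60.3, and 77.7 and 95.8. Of the secreted semaphorins, Sema3a stood at 44.5 and 46, Sema3c at 36.9 and 39.3 and Sema3e at 6.26 and 4.99. The class 4 semaphorins Sema4b, Sema4c, Sema4d and Sema4g, of a class that signals mainly through plexin-B receptors, stood at 14.5 and 11.2, 20.9 and 22.4, 5.8 and 5.15, and 14.3 and 15.1, and the class 5 and 6 genes Sema5b, Sema6a, Sema6c and Sema6d stood at 17 and 14.2, 54.9 and 61.7, 20.6 and 21, and 49 and 57.6. Of the plexins, Plxna1 stood at 26.5 and 27.4, Plxna3 at 9.26 and 10, Plxna4 at 21.5 and 25.8, Plxnb1 at 21.7 and 20.2 and Plxnb2 at 42.6 and 48.9. By family the median log2 ratio ran from -0.03 over 4 EphB receptors to 0.30 over 3 ephrin-B genes.

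Both calls depended on the cells and the scaling counted. Without the pluripotent-like cells neither gene was called. Both were then under 2-fold, and Epha2 also lay under 5 CPM in both libraries. With TMM factors or median-of-ratios size factors Efnb3 was under 2-fold, while Epha2 was still called. The remaining 12 genes of the 51 (Epha1, Epha6, Epha8, Ephb6, Sema3b, Sema3g, Efna1, Sema4a, Sema4f, Sema6b, Sema7a and Plxnb3) lay between 0.0551 and 4.63 CPM in both libraries and reached 20 CPM in no class.

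The ratio was next taken with each class given the same weight in both libraries, over 13 classes and clusters with at least 50 cells in each. On that scale the log2 ratio of Efnb3 went from 1.02 to 0.69, that of Epha2 from -1.56 to -0.95 and that of Sema5a from 0.94 to 0.40. Epha5, at 57 and 72.9 CPM in the whole libraries (log2 ratio 0.36), was lower in RA+BMP4 at equal class shares (-0.49). Sema3d went from -0.47 to -1.05 and Sema3c from 0.09 to -0.46, while Plxna4 went from 0.26 to 0.55. These values still hold differences of makeup inside a class, such as dI1-like cells, which were mostly cluster 13 in RA and mostly clusters 4 and 12 in RA+BMP4. With clusters in place of classes, an alternative chosen after the data were seen that leaves out clusters 4 and 12, the log2 ratio of Epha5 was -0.06, that of Efnb3 0.25, that of Epha2 -0.75, that of Sema3d -0.70, that of Sema3c -0.11 and that of Plxna4 0.34.

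**Figure D1:**
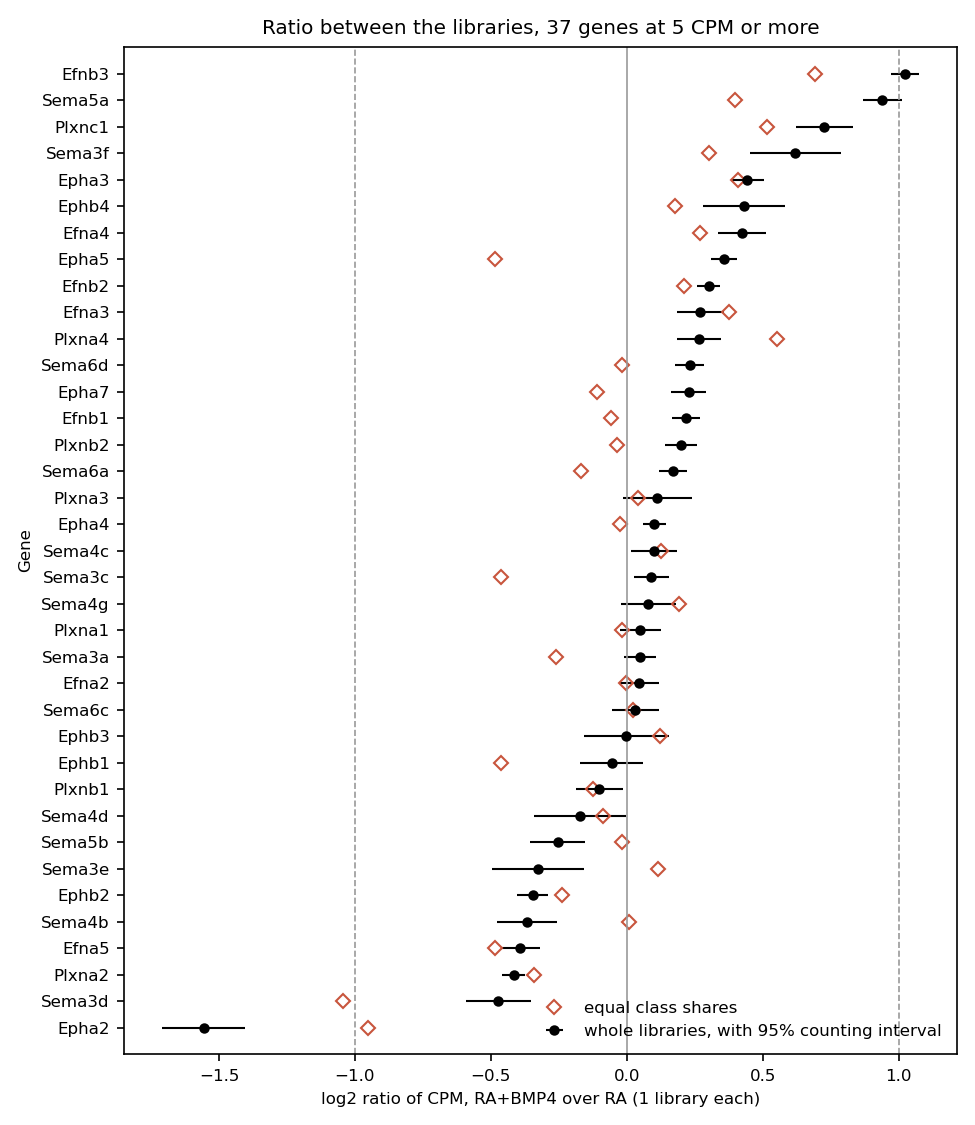
Log2 ratio of CPM, RA+BMP4 over RA, for the 37 genes at 5 CPM or more (1 library each). Black points are whole libraries with 95% counting intervals, open diamonds are ratios at equal class shares, and dashed lines mark 2-fold; Efnb3 (1.02) and Epha2 (-1.56) lie beyond them, and Epha5 changes side (-0.49, or -0.06 with clusters in place of classes).

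Of the 51 genes, 37 reached 20 CPM in at least 1 class, and 21 of these 37 had their highest class in common between the libraries. How often this holds over all genes was not computed, and RA had no value for neural crest-like cells. The number of genes at 20 CPM or more in both libraries ran from 3 in pluripotent-like cells through 12 in progenitor-like, 17 in roof plate-like and mesenchyme-like cells to 23 in dI5/dILB-like neurons, as the heat map of levels by class shows. A class of fewer cells or shallower cells gives less precise levels.

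**Figure D2:**
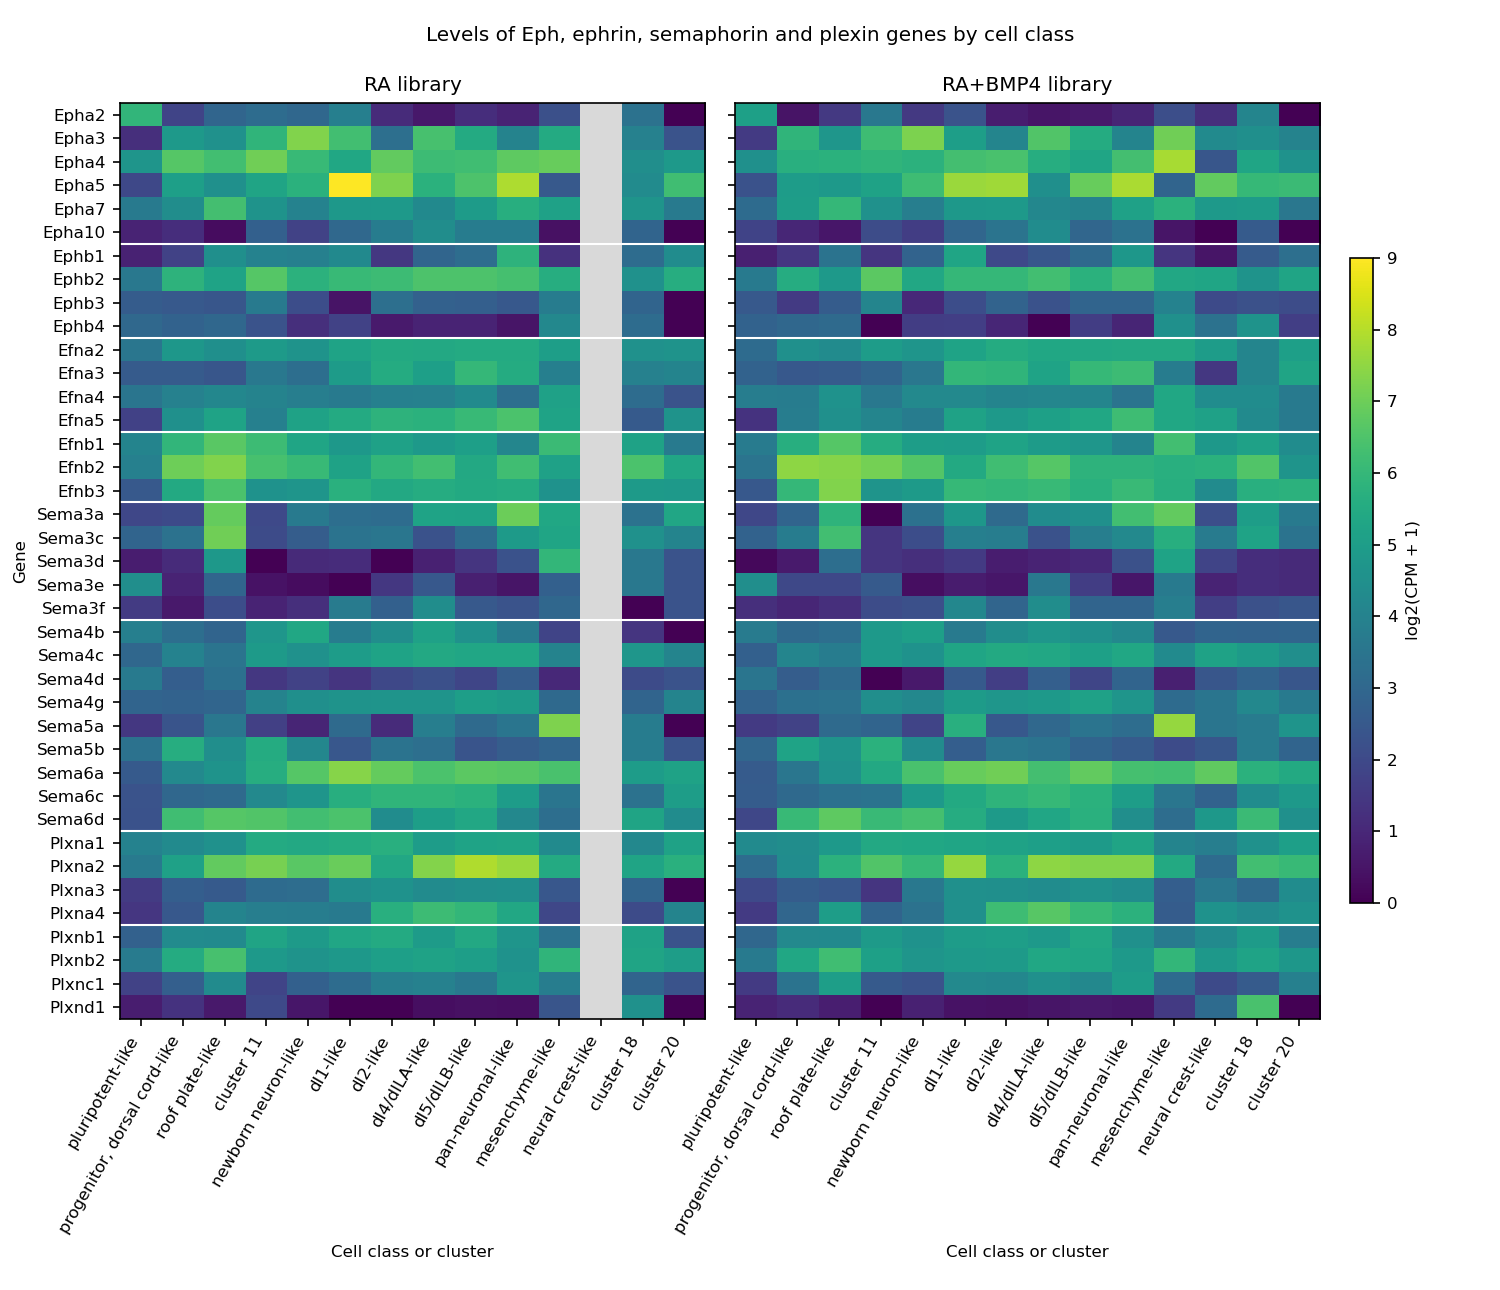
Level as log2(CPM + 1) of the 39 genes that reached 5 CPM in a library or 20 CPM in a class (rows, grouped by family with white lines) in each cell class or cluster (columns), RA left and RA+BMP4 right. Grey marks neural crest-like cells, of which RA had 1; Epha5 is highest in dI1-like cells in RA (519 CPM) and in pan-neuronal-like cells in RA+BMP4 (233 CPM), and Efnb1, Efnb3 and Sema3c are highest in roof plate-like cells in both.

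Epha5, a receptor for ephrin-A ligands, had its highest cluster level among the Atoh1-led cells. In cluster 13, led by Atoh1, Lhx2 and Lhx9, it stood at 673.6 CPM [635 to 714] in RA (112 cells) and 514 [494 to 535] in RA+BMP4 (441 cells). The other dI1-like clusters could be measured only in RA+BMP4, since RA held 48 and 14 of their cells. There Epha5 stood at 81.6 CPM [74 to 89.9] in cluster 12, led by Grin2a and Barhl2, and at 80.3 [73.9 to 87.2] in cluster 4, led by Sorcs3 and Barhl1. Among the other classes pan-neuronal-like cells stood at 237 and 233 CPM, and dI2-like neurons at 154 and 207. Pluripotent-like cells (2.9 and 3.81 CPM) and mesenchyme-like cells (4.72 and 6.4 CPM) were at the bottom.

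Epha5 was also found in most cells of cluster 13. After each cell was thinned to 5000 UMIs, 89.3% of cluster 13 cells in RA and 75.7% in RA+BMP4 had a UMI of Epha5, against 26.1% in cluster 12 and 20.9% in cluster 4. In pluripotent-like cells, taken as a rough background level for free RNA, the share was 1.25% and 1.18%. Those cells were deeper than cluster 13, so after thinning this share may understate the background in cluster 13. Without thinning the shares were 93.8% and 85.9% in cluster 13, 38.5% in cluster 12, 27.3% in cluster 4, and 7.12% and 10.7% in pluripotent-like cells, at median depths of 14195 and 10438 UMIs in cluster 13.

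Several other genes differed among the 3 dI1-like clusters. Epha4, the receptor that binds both ephrin classes, was low in cluster 13 (16.1 and 10.6 CPM) and stood at 72.2 in cluster 12 and 129 in cluster 4 of RA+BMP4. Ephb1, an EphB receptor known from the retina for turning axons at the midline, stood at 21.4 and 11.3 CPM in cluster 13, at 17 in cluster 12 and at 70.6 [64.6 to 77.1] in cluster 4. Sema5a followed the same order, with 1.19 and 5.75 CPM in cluster 13, 23.1 in cluster 12 and 99.7 [92.5 to 107] in cluster 4. The intervals of clusters 12 and 4 did not overlap for Epha4, Ephb1 or Sema5a. The share of all genes for which this holds was not computed.

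Among the plexins, Plxna2 stood at 87.4 and 80.4 CPM in cluster 13. It stood at 254 [240 to 268] in cluster 12 and at 220.3 [210 to 231] in cluster 4, without overlap and with cluster 12 higher. Here too the share of all genes without overlap was not computed. Sema6a, a transmembrane semaphorin that binds plexin-A2 and plexin-A4, was highest in cluster 13, at 178 and 161 CPM in cluster 13, 128 in cluster 12 and 86.2 in cluster 4. Efna3, a lipid-anchored ephrin, was at 16.6 and 31.9 CPM in cluster 13, 68.6 in cluster 12 and 73.7 in cluster 4. The dI1-like clusters thus carried different receptor and ligand levels within 1 named class.

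**Figure D3:**
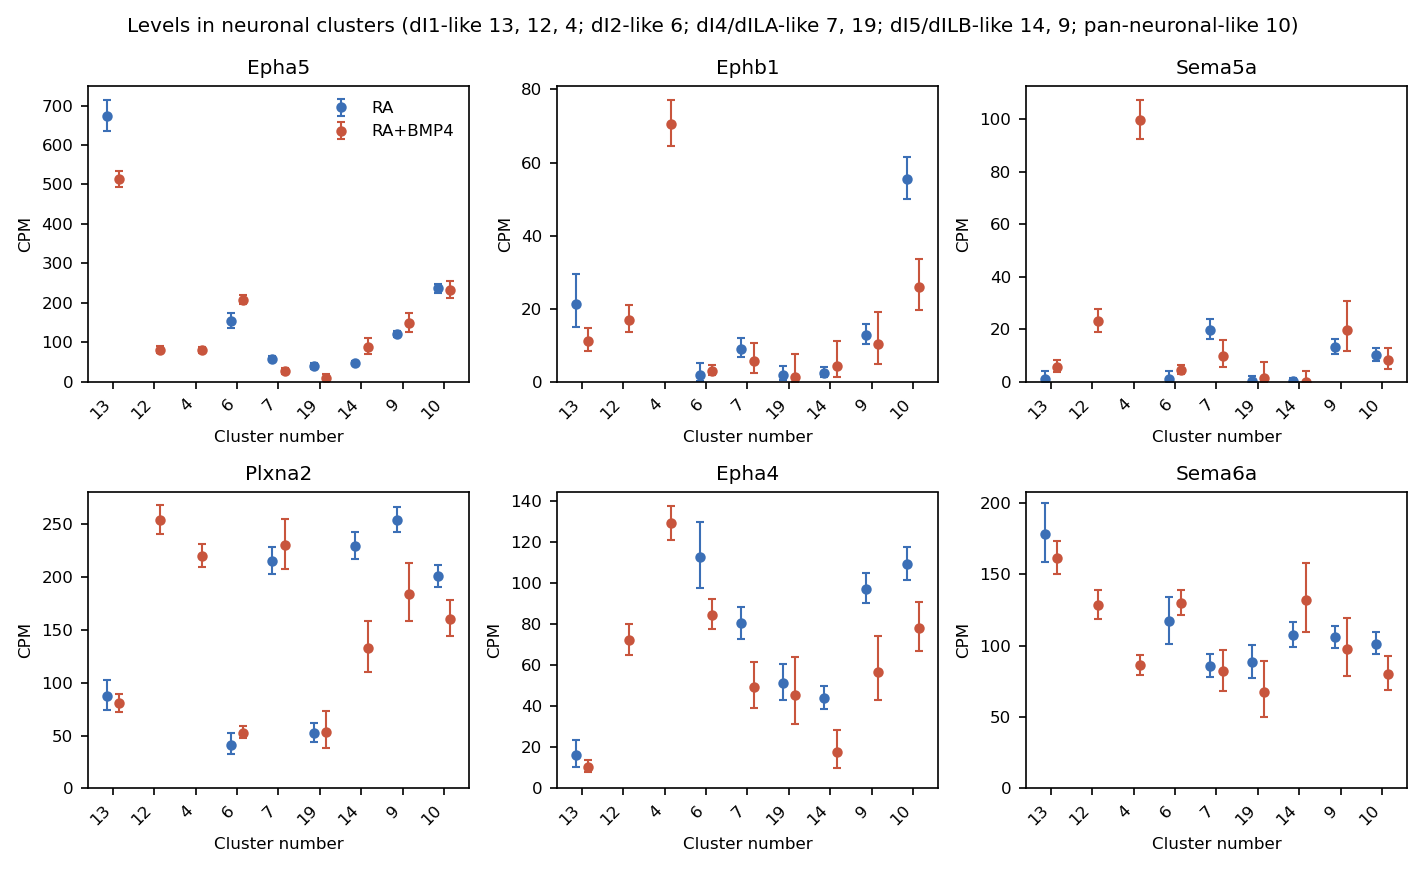
CPM of 6 genes in 9 neuronal clusters, with RA in blue and RA+BMP4 in red; bars are exact 95% Poisson intervals, and clusters 12 and 4 have no RA point because RA held under 50 of their cells. Epha5 is highest in cluster 13 (673.6 and 514 CPM), and Ephb1 and Sema5a are highest in cluster 4 among the RA+BMP4 points (70.6 and 99.7 CPM).

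Within the dI1-like class as a whole, 4 of 25 genes at 20 CPM or more were called higher in RA+BMP4 against 4.97% of 7102 genes tested, and 2 lower against 1.25%. Calls within a class needed 20 CPM in 1 library, a 2-fold difference and an interval that left out 1. Sema5a stood at 7.66 and 50.6 CPM, Sema3a at 8.46 and 26, Ephb1 at 18.1 and 38 and Efna3 at 29.4 and 60.6. Epha5 stood at 519 and 201 CPM and Epha3, another ephrin-A receptor, at 75.8 and 31.8. The makeup of the class moved with these values, and its part in them was not tested in the class as a whole. In RA 112 of the 174 cells were of cluster 13, and in RA+BMP4 809 of the 1762 were of cluster 4.

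Inside cluster 13, the dI1-like cluster that both libraries filled, none of these 6 genes was called, but Sema3a (4.16 and 11.3 CPM) and Sema5a (1.19 and 5.75) lay under 20 CPM and could not be. Sema3a had a ratio of 2.71 [1.23 to 7.06] and Efna3, at 16.6 and 31.9 CPM, one of 1.92 [1.27 to 2.98], close to its class ratio. Ephb1 lay the other way, at 21.4 and 11.3 CPM, and Epha5 had a ratio of 0.763 [0.711 to 0.82]. Of 24 genes tested there, 1 was higher (1.97% over all genes), the lipid-anchored ephrin Efna4 at 11.9 and 27.7 CPM, and 0 were lower (0.34%). Epha3 was at 105 and 90.2 CPM there. At the coarser clustering the class log2 ratios of Epha3 (-1.25) and Efna3 (1.04) came to -0.79 and 0.48, under the threshold. With each library clustered alone, the direction of Ephb1 in dI1-like cells turned, at 23.7 CPM in RA and 13.7 in RA+BMP4.

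In dI2-like neurons, 0 of 22 genes were called in either direction (0.989% and 0.384% over all genes). Genes high there relative to most classes were Plxna4, a plexin-A receptor, at 50.6 and 73.1 CPM, Efna3 at 45.9 and 58.2, and Epha5. Plxna2 stood at 41.3 and 52.9 CPM there. Plxna4 overlaps 3 annotated antisense genes, and Epha7, Epha10, Ephb1, Ephb4, Sema3e, Efna3, Efna4, Sema5a, Sema6d, Plxna1 and Plxnb1 overlap at least 1. Reads of such pairs are uncertain, because no source used here tells whether counting used strand. Sema6a stood at 116.9 and 130 CPM, next to 162 and 119.8 in dI1-like cells, and Plxnb1 at 44.2 and 31.8.

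The dI4/dILA-like neurons, which include inhibitory cells, had the highest Plxna4, at 71.2 and 101.4 CPM, together with Sema3f (20.2 and 20.1) and Sema6c (58.4 and 64.2), a transmembrane class 6 semaphorin. Their clusters differed. Plxna2 stood at 215 and 230.2 CPM in cluster 7 and at 52.5 and 53.8 in cluster 19. Sema4b, a transmembrane semaphorin, stood at 11 and 14.9 CPM in cluster 7 and at 80.4 and 48.2 in cluster 19. Of 25 genes 1 was called lower in RA+BMP4 (0.387% over all genes) and 0 higher (1.18%). It was Epha5, at 52.5 and 21.4 CPM, on 50 UMIs in RA+BMP4, and the log2 ratio of -1.30 came to between -0.90 and -0.78 with other clusterings or the stricter cell filter. Within its clusters Epha5 was the 1 gene called lower of 25 in cluster 7 (0.524% lower and 1.64% higher over all genes) and of 22 in cluster 19 (0.891% and 2.29%), with 0 higher.

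The dI5/dILB-like neurons, which are mainly excitatory, had the highest Plxna2 class level in RA, at 244 CPM, with 159 in RA+BMP4. Efna3 stood at 62.1 and 64.5 CPM. None of 24 genes was called in either direction (1.26% higher and 0.248% lower over all genes), while within cluster 9 Epha7 was the 1 of 26 called lower (0.722%, with 0 higher, 1.63%) and within cluster 14 Epha4 the 1 of 23 (0.516%, with 0 higher, 2.38%). Sema4g stood at 32.4 and 34.1 CPM and Plxnb1 at 42.3 and 41. Pan-neuronal-like cells combined Ephb1 (55.6 and 26 CPM), Sema3a (125 and 75.6), Epha5 and Efna5 (86.7 and 72.4). Sema3a is a secreted repellent that acts through neuropilin-1. Ephb1 was the 1 gene of 24 called lower in that class (0.436%), with 0 called higher (1.29%), and its log2 ratio of -1.10 came to -0.15 with each library clustered alone.

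Newborn neuron-like cells had the highest Epha3, at 157 and 149.7 CPM, with Sema4b at 40.3 and 33.1 and Sema6d at 76.1 and 80.8. Of 19 genes tested 1 was called lower in RA+BMP4, Efna5 at 35.6 and 12.7 CPM (0.447% over all genes), and 0 higher (0.895%). The log2 ratio of Efna5 there, -1.49, came to -0.56 with each library clustered alone and to -0.69 with the stricter cell filter. Cluster 11 had high Ephb2 (97.1 and 105 CPM) and Sema5b (45.1 and 53.1), a transmembrane semaphorin. Epha4 was the 1 gene of 19 called lower in cluster 11, at 131 and 57.9 CPM (1.74%), with 0 higher (2.98%), and RA+BMP4 had 71 cells of it.

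Progenitor-like cells of the dorsal cord combined Efnb2 (129 and 176 CPM), a transmembrane ligand, with Sema5b (47.9 and 36) and Sema6d (75.2 and 65.5). Epha3 was the 1 gene of 15 called higher in RA+BMP4, at 27.8 and 58.2 CPM (1.21% over all genes), and 0 were lower (0.523%). At the finer clustering its log2 ratio of 1.07 came to 0.93, under the threshold. Within cluster 5, the larger progenitor-like cluster in RA, Epha4 was lower at 100.2 and 37.7 CPM (0.868% lower over all genes) and Epha3 higher at 25.7 and 55.3 (0.974%). In cluster 17 none of 15 was called (1.38% higher and 0.357% lower).

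Roof plate-like cells held all 3 ephrin-B genes at high levels, and Efnb1 and Efnb3 were highest there in both libraries. Efnb1 stood at 102 and 98.1 CPM, Efnb2 at 157 and 165 and Efnb3 at 87.1 and 156 CPM, while Efnb2 was higher in progenitor-like cells of RA+BMP4. These cells also had the highest Plxnb2 (82.5 and 74.3), a receptor for class 4 semaphorins, and Epha7 (78.5 and 62.8), an ephrin-A receptor. After thinning, 79% of roof plate-like cells in RA and 82.9% in RA+BMP4 had a UMI of an ephrin-B gene, and 97.8% and 96% did so without thinning, at median depths of 17786 and 10695 UMIs. In pluripotent-like cells the thinned shares were 14.6% and 10.1%.

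The 3 roof plate-like clusters divided these genes. In cluster 0, led by Rspo3 and Wnt1, Efnb3 stood at 215 CPM [197 to 235] in RA and 217 [210 to 224] in RA+BMP4, with Sema6d at 151 and 137. In cluster 3, led by Cp and Colec12, Efnb3 stood at 71.5 and 68.4 CPM, while Sema3a was at 156 [149 to 164] and 182 [170 to 195] and Sema3c, a secreted semaphorin, at 171 and 154. In cluster 0 Sema3a was at 14.3 and 22.9 CPM and Sema3c at 59 and 67.7. The order of clusters 0 and 3 was thus opposite for Efnb3 and for both secreted semaphorins, in each library. Cluster 1, led by mitotic genes, lay between for Sema3a (94.7 and 59.4).

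**Figure D4:**
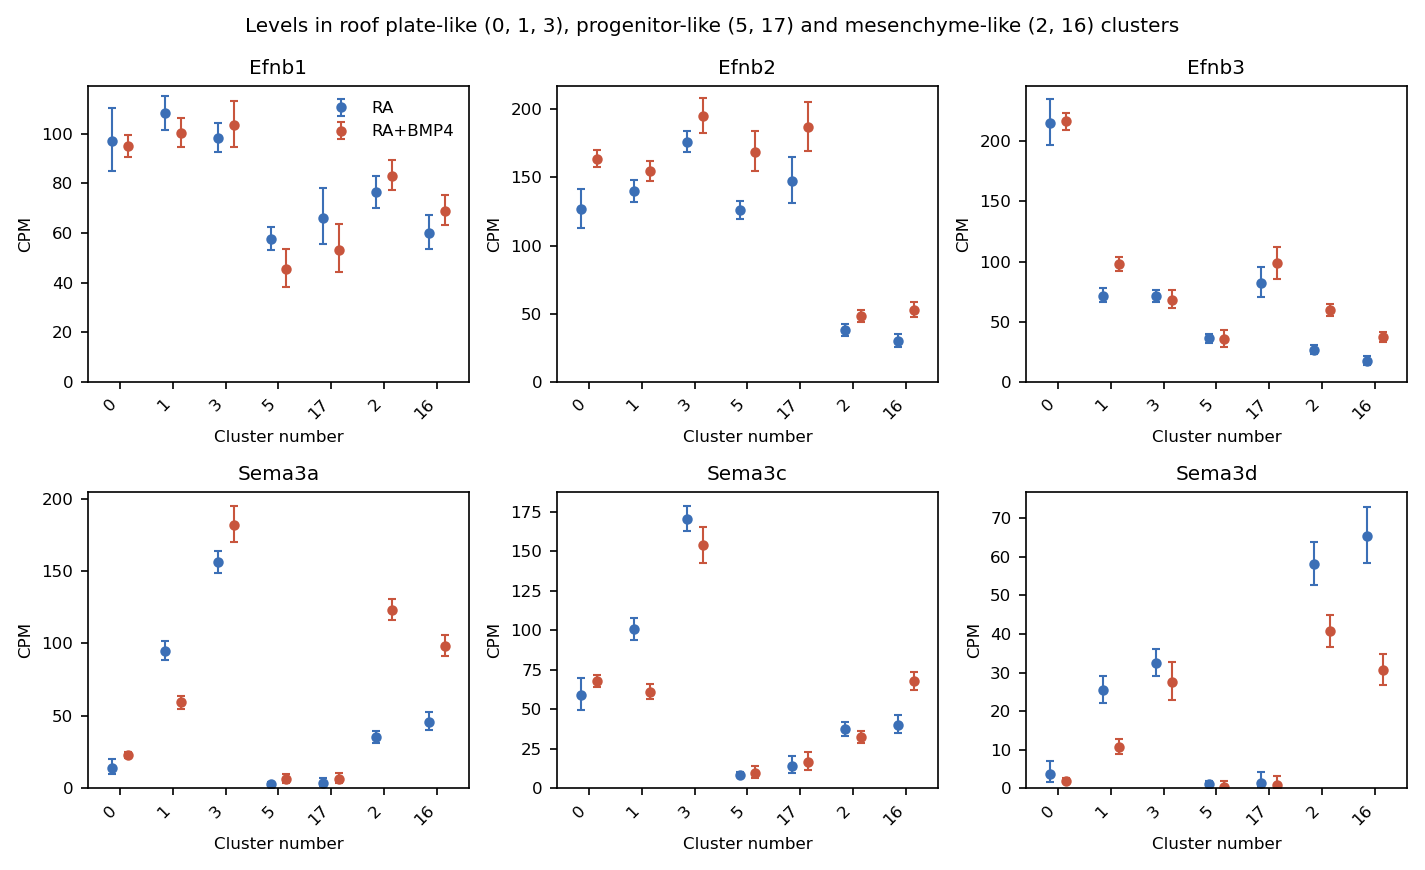
CPM of 3 ephrin-B and 3 class 3 semaphorin genes in roof plate-like (0, 1, 3), progenitor-like (5, 17) and mesenchyme-like (2, 16) clusters, RA in blue and RA+BMP4 in red, with exact 95% Poisson intervals. Efnb3 peaks in cluster 0 at 215 and 217 CPM, and Sema3a and Sema3c peak in cluster 3 in both libraries, at 156 and 171 CPM in RA.

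Within the roof plate-like class 4 of 23 genes were called lower in RA+BMP4, against 1.25% of 7034 genes tested, and 0 higher (1.59%). They were Ephb1 at 21.2 and 9.67 CPM, Sema3a at 117 and 57.2, Sema3d at 26.6 and 8.46 and Plxna2 at 113 and 53.5. The clusters were unequally filled. Cluster 0 held 169 of 1007 cells in RA and 1754 of 2808 in RA+BMP4, and cluster 3 held 541 and 331. Within cluster 3 none of 23 genes was called (0.28% higher and 0.118% lower over all genes). Within cluster 0 Epha4 was lower, at 107 and 51 CPM, the 1 of 21 called lower (0.13%, with 0 higher, 1.05%). Within cluster 1 Sema3d was, at 25.4 and 10.7, the 1 of 20 (0.977%, with 0 higher, 0.685%). The class direction of Sema3a did not hold in each cluster. Its ratio was 1.60 [1.13 to 2.34] in cluster 0, 1.16 [1.07 to 1.26] in cluster 3 and 0.627 [0.566 to 0.695] in cluster 1. With the stricter cell filter the class log2 ratios of Ephb1, Sema3a and Plxna2 came to between -0.64 and -0.58, while that of Sema3d was -1.82. With each library clustered alone those of Sema3a and Plxna2 came to -0.72 and -0.98.

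Mesenchyme-like cells, led by collagen genes, combined Sema5a (152 and 189 CPM), Sema3d (61.1 and 36.1), Epha4 (119.5 and 223) and Efna4 (34.4 and 40.4). Of 18 genes 3 were called higher in RA+BMP4, against 0.851% of 6584 genes tested, and 0 lower (0.881%). Epha3 stood at 43.9 and 130.3 CPM, a ratio of 2.97 [2.7 to 3.27]. Sema3a stood at 39.6 and 112 CPM, a ratio of 2.83 [2.56 to 3.13]. Efnb3 stood at 22.9 and 49.3 CPM, a ratio of 2.15 [1.87 to 2.47].

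All 3 of these genes were also called higher in each mesenchyme-like cluster. In cluster 2 (292 and 593 cells) Epha3 was at 48.2 and 124 CPM and Sema3a at 35.2 and 123, and in cluster 16 (142 and 327 cells) Epha3 was at 37.7 and 137.6 and Sema3a at 46.1 and 98.4. Cluster 2 had 4 of 19 genes higher (0.941%) and 0 lower (1.18%), the other being Epha4 at 132 and 277 CPM. Cluster 16 had 4 of 18 higher (1.36%), the other being Epha7 at 23.9 and 48.8, and 1 lower (0.81%), Sema3d at 65.4 and 30.6. The 3 class calls held under both other resolutions, with each library clustered alone and with the stricter cell filter.

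Pluripotent-like cells had few of these genes. Epha2 stood at 59.3 and 33.9 CPM and Epha4 at 25.1 and 22.2. Sema3e, a class 3 semaphorin that binds plexin-D1 directly, stood at 21 and 21. These cells gave 73.5% of all Epha2 UMIs in RA and 49.3% in RA+BMP4. None of 3 genes at 20 CPM was called (0.416% higher and 0.15% lower over all genes). Cluster 18 had the highest Plxnd1, a plexin of blood vessels, at 22.4 and 84.7 CPM. There 5 of 20 genes were called higher, against a high background of 10.3%, and 0 lower (3.38%). They were Epha5, Ephb4, Sema3a, Plxna2 and Plxnd1, on 5 to 23 UMIs each in RA. In cluster 20, 1 of 18 was higher (3.57%) and 1 lower (2.07%). The higher was Sema5a with 0 UMIs in RA and 22 in RA+BMP4, a ratio of 2.03 with RA set to the floor of 3 UMIs. The lower was Sema3a on 10 and 11 UMIs.

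**Figure D5:**
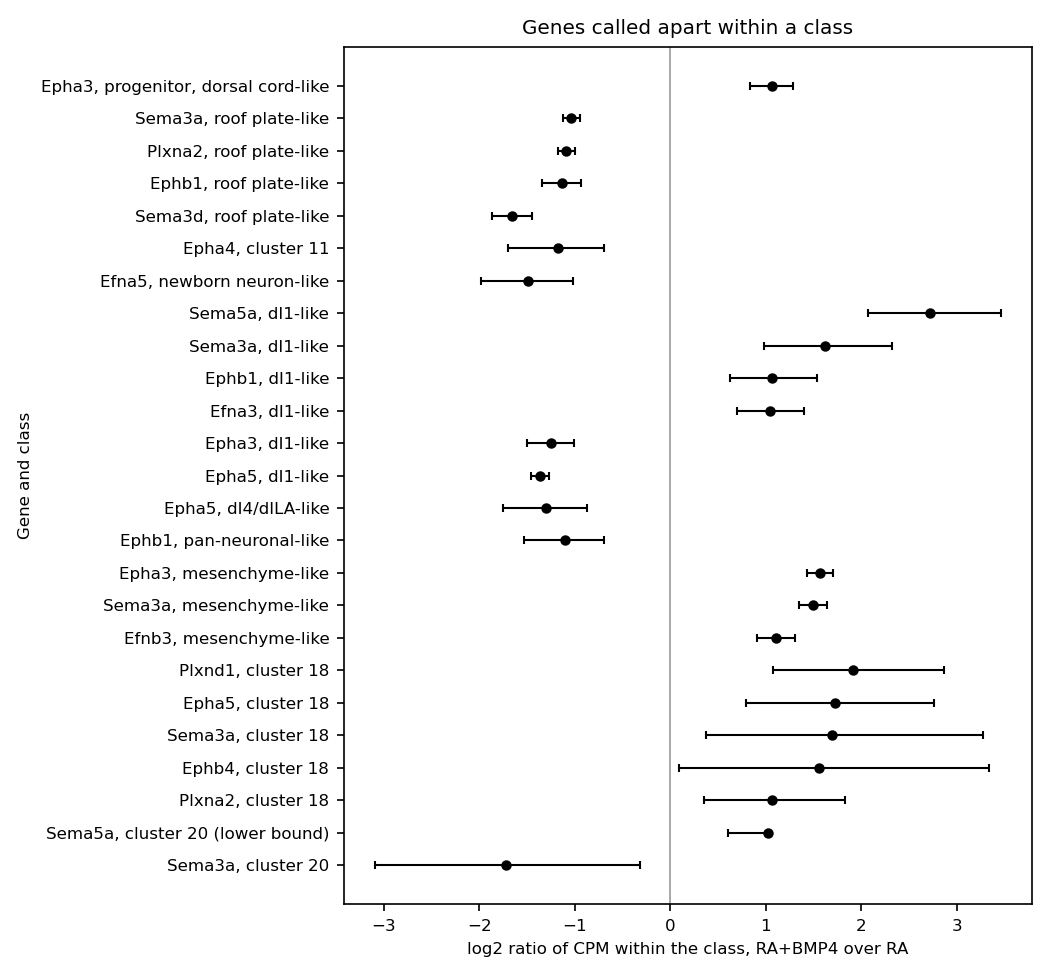
Log2 ratio of CPM, RA+BMP4 over RA, for the genes called within a class or unnamed cluster, with 95% counting intervals; Sema5a in cluster 20 is a lower bound drawn without an upper limit. The mesenchyme-like ratios lie between 1.10 and 1.57, and the 4 roof plate-like ratios between -1.65 and -1.03.

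Receptor and ligand families were also counted cell by cell. After thinning to 5000 UMIs, which left out 187 RA and 573 RA+BMP4 cells, a UMI of an EphA receptor was found in 61.2% and 60.7% of cells, of an EphB receptor in 36% and 31.2%, of an ephrin-A in 40.6% and 39.8% and of an ephrin-B in 52.5% and 62.9%. Class 3 semaphorins were found in 24.9% and 29.7%, membrane semaphorins in 68.9% and 70.4%, plexin-A in 50.8% and 46% and the other plexins in 33.1% and 35.9%. Without thinning the shares were higher, for example 85.7% and 77.5% for EphA and 80.7% and 80.8% for ephrin-B, at median depths of 14196 and 10465 UMIs. In pluripotent-like cells the thinned shares were 37.1% and 26% for EphA, 11.8% and 10.1% for EphB, 14.6% and 20.7% for ephrin-A, 13.1% and 16% for class 3 semaphorins, 29.3% and 30.2% for membrane semaphorins, 13.1% and 13% for plexin-A and 10.6% and 7.69% for the other plexins. For EphA and class 3 semaphorins these are no background, since pluripotent-like cells had Epha2, Epha4 and Sema3e at 20 CPM or more. Whether the shares of the other families are background was not tested. Pluripotent-like cells had Plxna1 at 15 and 18.9 CPM and Ephb2 at 11.1 and 11.7.

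An EphA receptor and an ephrin-A were found together in 42.8% [35.3 to 50.5] and 36% [33.7 to 38.4] of dI1-like cells, in 44.1% and 47.8% of pan-neuronal-like cells and in 20.7% and 15.7% of roof plate-like cells. In mesenchyme-like cells the share was 26.2% [22.1 to 30.6] in RA and 40.7% [37.4 to 43.9] in RA+BMP4, each from 1 library. In pluripotent-like cells, which have Epha2 and Epha4 themselves, it was 6.23% and 3.55%. A plexin-A and a class 3 semaphorin were found together in 30.7% and 23.9% of pan-neuronal-like cells and in 30.3% [27.5 to 33.3] and 16.3% [15 to 17.7] of roof plate-like cells, but in 2.24% and 2.31% of newborn neuron-like cells, beside 1.56% and 4.73% of pluripotent-like cells.

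Few other genes of these pathways were called between the whole libraries, where 1.5% of all genes tested were higher and 1.41% lower, with a median log2 ratio of 0.07. Of the semaphorin co-receptors 9 of 10 were tested and 0 were called, with a median log2 ratio of 0.35. Of the plexin effectors 21 of 23 were tested and 0 were called, with a median of 0.07. Of the effectors of Eph receptors and ephrins 22 of 24 were tested, with a median of 0.08, and 1 was called higher and 0 lower. It was Ptpro, a tyrosine phosphatase that acts on Eph receptors, at 19.7 and 50.4 CPM, a ratio of 2.56 [2.44 to 2.7], and it is also among the 10 leading genes of the roof plate-like cluster 0.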

How the data were processed

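Cells were dissociated, depleted of dead cells and captured with 10x Genomics Chromium 3' v3 reagents, per the labels' protocols. The authors deposited whole-number UMI counts, 1 matrix a library. Cell Ranger 3.0.2, CASAVA and GRCm38 are named in the submitters' processing notes. Neither the annotation release nor the use of strand in counting is given in those sources. Gene coordinates came from GENCODE vM21 of that build.

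Kept cells had at least 1000 genes, at most 10% mitochondrial UMIs and no doublet call (Scrublet in scanpy 1.11.5, expected rate 8%), which removed 138 and 298 doublets. Both libraries were clustered together (3000 variable genes, 30 components, 20 neighbours, leidenalg 0.10.2, resolution 1), leaving out the 51 genes, pathway genes and markers. Each cluster was named for the marker list best represented among the 10 genes with the largest fold over other cells (5 CPM added), if 3 of that list's markers were in 10% of its cells at 1.5-fold; ties went to the mean fold. A cluster stayed unnamed if another list had more leading markers, or as many and itself 3 such markers, or if it was shallow with no leading marker. Clusters 1, 3 and 10 had no marker among those 10 genes. Clusters 9, 12 and 17 had 1, as had another list in each (dI1, dI5/dILB and glial progenitor), which was passed over for having fewer than 3 such markers. This rule was written once the data were in hand and revised once with the clusters in view: Atoh1 precursors were pooled with dI1, and a limit on mean fold was dropped, which changed no name in the main clustering.

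Ratios set a library under 3 UMIs to 3 and carry exact conditional binomial intervals, levels exact Poisson and shares Clopper-Pearson intervals (95%, scipy 1.17.1). Genes with 5 CPM in a library or 20 CPM in a class of 50 cells are given with values, pathway genes only where called. TMM factors came from edgeR 4.0.16. Whole-library calls and intervals were tested on simulated counts, and the thinning on a simulated draw. Clustering, naming, class weighting, calls within classes and family shares were not tested in this way. The members, lists and shown promoters were chosen with earlier results of these data known. No protein sequences were used here.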

Additional observations from a re-analysis of the deposited data

Results flagged for a closer look

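For 5 genes the calls went in opposite directions between the libraries in different classes, and these differences between classes were not tested, with 1 library per condition. How often this holds over all genes was not computed, so the count of 5 cannot be called many or few. The values are log2 ratios of CPM, RA+BMP4 over RA. Epha3 was higher in progenitor-like cells (1.07) and mesenchyme-like cells (1.57) and lower in dI1-like cells (-1.25). Epha5 was lower in dI1-like cells (-1.37) and dI4/dILA-like cells (-1.30) and higher in the shallow cluster 18 (1.73). Ephb1 was lower in roof plate-like cells (-1.13) and pan-neuronal-like cells (-1.10) and higher in dI1-like cells (1.07). Plxna2 was lower in roof plate-like cells (-1.09) and higher in cluster 18 (1.07). Sema3a was lower in roof plate-like cells (-1.03) and cluster 20 (-1.71) and higher in dI1-like cells (1.62), mesenchyme-like cells (1.5) and cluster 18 (1.70). Roof plate-like and dI1-like cells were filled by different clusters in the 2 libraries, and clusters 18 and 20 rest on few UMIs. Inside the roof plate-like clusters Sema3a was called in none, and was higher in cluster 0 (0.68) and cluster 3 (0.22) and lower in cluster 1 (-0.67).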

How the results depend on the processing

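No paired analysis was possible because each condition had 1 library. The count of genes higher in RA+BMP4 between whole libraries, 1, was 0 with TMM factors, median-of-ratios factors or without pluripotent-like cells, and 2 (Efnb3 and Sema5a) with each cell weighted equally, with no cell filter or with the stricter filter of 2000 genes and 5% mitochondrial UMIs. The count lower, 1, was 0 at a floor of 20 CPM or without pluripotent-like cells, and 2 (Epha2 and Epha8) at 1 CPM. The cause was not tested, except that Epha2 lies under the 20 CPM floor, and under the 5 CPM floor once pluripotent-like cells are left out. Pluripotent-like cells held 1084 of the 1474 Epha2 UMIs in RA and 231 of the 469 in RA+BMP4. Without pluripotent-like cells 11 of 39 whole-library values changed sign, and with TMM factors 4 did. Within classes 1 called value turned direction, Ephb1 in dI1-like cells at -0.79 with each library clustered alone. The genes with the same highest class numbered 19 to 25 under other clusterings and the stricter filter, beside 21. Unthinned cells moved the ratio of shares for all 8 families. Leaving out clusters 18 and 20, added after the data were seen, changed neither count. The clusters left unnamed had no value under other clusterings, and dI1-like cells had none under the stricter filter, with under 50 RA cells left. Depth limits genes under 20 CPM in classes of few cells.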

Other observations

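Neural crest-like cells, with 116 cells in RA+BMP4 and 1 in RA, had no counterpart to compare. Of the 51 genes 12 reached 20 CPM in them. Highest against the median of the classes were Epha5 at 114.7 CPM, Sema6a at 109.6, Efna5 at 34.5 and Sema4c at 35.4, though each was higher in at least 1 other class of RA+BMP4. Plxna2, high in most neurons, was at 7.76 CPM. Sema3g, named after its values were seen, was at 14.2 CPM, on 33 of the 49 UMIs of this gene in the library.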
